A study of Homo sapiens with 9 samples.

Results

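The BCL2 family decides whether the outer membrane of the mitochondrion is breached during apoptosis, and 10 of its genes were followed through AC16 cells given high glucose with or without chrysin. They were taken by gene symbol (BMF, BBC3, PMAIP1, BCL2L11, BID, BAX, BAK1, BCL2, BCL2L1 and MCL1) from a table of 60671 rows, and each symbol had a single row. All 10 passed the filter on low values, which asks that at least 1 group average 0.5 FPKM or more. FPKM counts fragments per kilobase of transcript, scaled to the size of the library, so comparing levels between genes depends on the transcript lengths used. The lengths implied by the values were 701 bases for BAX, 1387 for BCL2L1, 2446 for MCL1 and 4981 for BCL2.

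AC16 is a human line obtained by fusing adult ventricular cells with transformed fibroblasts. Polyadenylated RNA was sequenced from 3 libraries of cells given high glucose with chrysin, a flavonoid found in honey and passion flower, 3 of cells given high glucose alone, and 3 of cells given low glucose. The sources used here give no dose, glucose concentration or duration, and the labels do not say whether the libraries of a group came from separate cultures, so p-values measure the spread between these libraries only. The title places the work in diabetic cardiomyopathy and ferroptosis, an iron-dependent form of cell death distinct from apoptosis.

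The proteins of the family fall into 3 classes. BAX and BAK1 are the effectors that form pores and release cytochrome c, the anti-apoptotic proteins BCL2, BCL-XL (gene BCL2L1) and MCL1 hold them in check, and the BH3-only proteins BMF, PUMA (BBC3), NOXA (PMAIP1), BIM (BCL2L11) and BID either block the anti-apoptotic proteins or activate the effectors directly. Much of the control of the BH3-only class lies in transcription. BH3-only proteins such as BMF and BID, the effectors and MCL1 are also governed by protein shape, location, cleavage or turnover, which RNA does not show.

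The upstream sequences of BMF, BBC3 and BCL2L11 are shown because BMF and BBC3 had the largest falls and BCL2L11 the largest rise of the 10 genes with chrysin against high glucose, on the scale used for testing. Each is the 250 bases before a RefSeq transcription start on GRCh38.p14, read 5′ to 3′ on the gene's own strand, and 9 of the 10 genes had at least 1 such entry. Capitals mark GTAAACA (a core bound by FOXO factors), CACGTG (an E-box) and GCGTG (the core of the element bound by the aryl hydrocarbon receptor), each searched on both strands.
BMF, chr15:40108880-40109129, minus strand: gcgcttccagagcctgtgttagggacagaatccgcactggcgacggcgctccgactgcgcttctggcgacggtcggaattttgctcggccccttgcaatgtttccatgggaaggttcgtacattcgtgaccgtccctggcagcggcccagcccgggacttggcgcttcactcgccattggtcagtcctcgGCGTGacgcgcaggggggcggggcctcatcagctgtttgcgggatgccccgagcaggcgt
BBC3, chr19:47232668-47232917, minus strand: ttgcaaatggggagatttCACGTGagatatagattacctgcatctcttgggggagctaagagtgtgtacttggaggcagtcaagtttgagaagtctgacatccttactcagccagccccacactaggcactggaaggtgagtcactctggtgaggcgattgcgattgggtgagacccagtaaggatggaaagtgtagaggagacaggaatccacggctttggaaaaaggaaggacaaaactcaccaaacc
BCL2L11, chr2:111120664-111120913, plus strand: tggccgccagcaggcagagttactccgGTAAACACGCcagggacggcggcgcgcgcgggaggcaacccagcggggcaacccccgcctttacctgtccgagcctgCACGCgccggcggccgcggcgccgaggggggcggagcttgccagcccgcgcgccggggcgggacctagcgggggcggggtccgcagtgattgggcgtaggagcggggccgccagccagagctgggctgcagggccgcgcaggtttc
The BCL2L11 window held 1 GTAAACA, 223 bases before the start, overlapping 1 of its 2 copies of the GCGTG core, which lay 218 and 146 bases before the start and are written on the other strand as CACGC. The BMF window shown held 1 GCGTG, 60 bases before the start, and no GTAAACA. A further BMF entry, chr15:40106967-40107216, is not shown and held none of the marked sequences. The BBC3 window held 1 CACGTG, 232 bases before the start. Of 35116 RefSeq promoter windows of this length, 2.98% held GTAAACA, 6.34% held CACGTG and 32.2% held GCGTG. Among the 9 genes with an entry, GTAAACA was found in 1, CACGTG in 3 and GCGTG in 5. These genes had 15 entries, and a gene counted if any of its entries matched. The counts per gene therefore cannot be set against the shares per window. BAX carried 4 copies of CACGTG. A match of letters is a description and no measurement of binding.

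Recovered reads came to between 18171842 and 23024300 per library. High glucose library 1 stood apart from its replicates among genes with more than 10000 reads in a pair of libraries, with a chi-square per gene of 28.1 and 31.5 against the other two, whereas all other pairs of replicates gave 4.82 to 7.44. Without that library, the calls of the 10 members given below were kept except that of BCL2 in chrysin against high glucose. The values without it for chrysin over high glucose were −2.07 for BMF, −1.31 for BBC3, 0.53 for BCL2L11, 0.17 for BID, 0.16 for BCL2L1 and −0.24 for MCL1 on the log2 scale. For high over low glucose they were 1.001 for BMF, −0.53 for BBC3, −0.63 for PMAIP1, 0.38 for BAK1 and 0.19 for MCL1. Of 13 cardiomyocyte markers, 10 stayed under 0.5 FPKM in every library, 3 of them (MYL2, NKX2-5 and TBX5) at 0, and the 2 that passed the filter were GATA4 and NPPB. All 12 fibroblast markers were expressed, and their summed level was 6950 to 7100 FPKM with chrysin, 9900 to 10300 FPKM in high glucose and 8580 to 8850 FPKM in low glucose. Of these 12, 9 fell by limma in chrysin against high glucose, where their median log2 fold change was −0.63. In that comparison 0 rose by limma or by voom, and 0 rose at an unadjusted p under 0.05. Over all genes tested in it, limma called 20.9% lower and 24.9% higher, with a median log2 fold change of 0.03. The 4 smooth muscle markers summed to 286 to 298 FPKM with chrysin, 182 to 197 FPKM in high glucose and 207 to 212 FPKM in low glucose. TAGLN made up most of this sum. In chrysin against high glucose 2 of these markers were called higher and 0 lower, and CNN1 was not called. The 4 epithelial markers summed to 173 to 188 FPKM with chrysin, 258 to 280 FPKM in high glucose and 233 to 244 FPKM in low glucose. KRT18 made up most of this sum, with means of 177, 264 and 232 FPKM in these groups. The 4 macrophage markers summed to 2.86 to 3.33 FPKM with chrysin, 5.13 to 5.64 FPKM in high glucose and 3.33 to 3.63 FPKM in low glucose. In chrysin against high glucose, KRT18 and CD14 were the only epithelial and macrophage markers called, both lower. None of the 4 endothelial markers passed the filter. Mitochondrially encoded genes took 3.80 to 3.89% of reads with chrysin, 2.80 to 3.04% in high glucose and 2.79 to 2.90% in low glucose. The part that any of these played in the values of the BCL2 family was not tested, and in bulk RNA fewer cells of a type and less RNA per cell cannot be told apart.

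Transcript levels differed widely within the family, and the group means of the most abundant members had the same order in every group. BAX and MCL1 were the most abundant transcripts by FPKM in every group, followed by BCL2L1. In recovered reads BAX had 1772 to 2219 per library and MCL1 5489 to 8053, so the place of BAX rests on the lengths used. BAX averaged 142 ± 15.6 FPKM with chrysin, 143 ± 13.7 FPKM in high glucose and 140 ± 11.0 FPKM in low glucose (SD, n = 3 each), and its libraries overlapped with those of MCL1 in the chrysin and high glucose groups but not in low glucose. BAK1 and BID lay between 19.9 and 29.9 FPKM in all libraries. BCL2 itself stayed under 1 FPKM in every library, far under MCL1 and BCL2L1.

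The order of the scarcer members differed between the groups. With chrysin, BCL2L11 was the most abundant of BCL2L11, BBC3 and BMF, and BMF overlapped with BCL2 at the bottom. In high glucose BMF, BCL2L11 and BBC3 overlapped in a band of 3.35 to 5.81 FPKM, with BCL2 far below. In low glucose these 4 genes were separate, in the order BBC3, BCL2L11, BMF and BCL2, and PMAIP1 overlapped with BAK1 and BID.

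**Figure D1:**
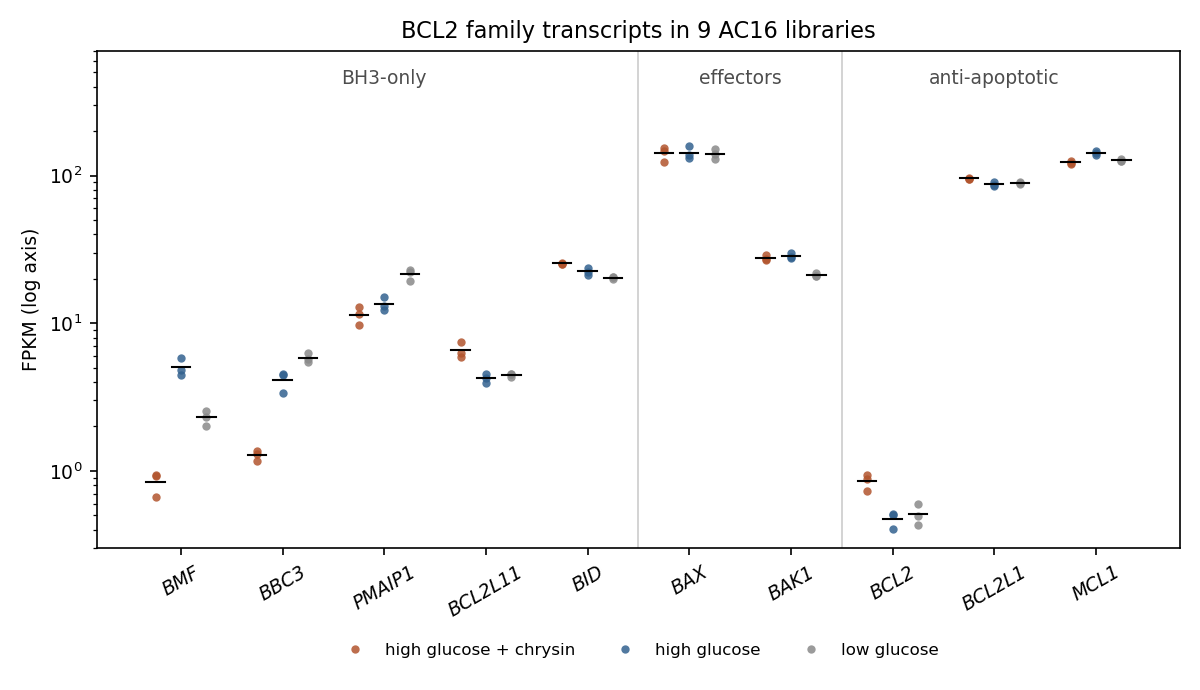
FPKM (log axis) of the 10 BCL2 family genes in 9 libraries, in 3 classes; points are libraries, black bars are group means, and colours give the group. BAX, MCL1 and BCL2L1 sit at the top with little spread between groups, whereas BMF and BBC3 sit lowest with chrysin.

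Whether chrysin changed the family in high glucose is the comparison of cells given high glucose with chrysin against cells given high glucose alone. Of the 10 genes, 3 fell (BMF, BBC3 and MCL1) and 4 rose (BCL2L11, BID, BCL2 and BCL2L1) at a limma adjusted p under 0.05. Across all 16996 genes tested, 20.9% were called lower and 24.9% higher, so calls in both directions were frequent throughout the transcriptome. The split of 4234 higher and 3558 lower calls became 3807 and 3970 with median-of-ratios scaling, so which direction had more calls depended on the scaling. Chrysin and high glucose libraries did not overlap for 7 of the 10 members, against 54.3% of all genes tested. The 2 largest changes, in BMF and BBC3, were exceeded in size by 0.177% and 1.24% of tested genes.

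BMF (chr15:40087890-40108892, hg38, minus strand), whose protein is held at myosin motors until it is released to bind anti-apoptotic proteins, fell the most. It had 0.664, 0.920 and 0.937 FPKM with chrysin, against 4.79, 4.45 and 5.81 FPKM in high glucose. The highest chrysin library therefore stood far below the lowest high glucose library. The log2 fold change was −2.04 ± 0.14 (SE; limma adjusted p = 1.25e-06) on the scale of log2(FPKM + 0.5), where the pseudocount shrinks the change of scarce transcripts, and the ratio of mean FPKM was 0.168. Behind these values were 17 to 29 reads per library with chrysin and 136 to 158 in high glucose. The antisense gene BMF-AS1, which shares 461 of the 5447 annotated exon bases of BMF, was at 0 in 7 of the 9 libraries.

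BBC3 (chr19:47220822-47232766, minus strand), known as a target of p53 and able to bind all the main anti-apoptotic proteins, also fell. It had 1.17, 1.36 and 1.29 FPKM with chrysin, against 4.49, 4.50 and 3.35 FPKM in high glucose. All 3 chrysin libraries were low and close together, and the groups did not overlap. The log2 fold change was −1.37 ± 0.12 (SE; limma adjusted p = 6.92e-06), with 33 to 44 reads per library with chrysin and 100 to 159 in high glucose.

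BCL2L11 (chr2:111119378-111168447, plus strand), which encodes BIM, a binder of every anti-apoptotic member and an activator of the effectors, moved the other way. It had 6.33, 5.88 and 7.46 FPKM with chrysin, against 3.96, 4.50 and 4.23 FPKM in high glucose. Each chrysin library was above each high glucose library. The log2 fold change was 0.57 ± 0.09 (SE; limma adjusted p = 0.000563). BCL2L11 shares 727 of 6658 annotated exon bases with MIR4435-2HG, which runs antisense to it, and the sources used here do not say whether strand was used in counting. MIR4435-2HG had 21.9 to 24.6 FPKM with chrysin and 31.4 to 33.7 FPKM in high glucose, a difference opposite in direction to that of BCL2L11.

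Of the other BH3-only members, BID rose slightly and PMAIP1 was not called. BID (chr22:17734138-17774770, minus strand), whose protein is cut by caspase 8 and carries death receptor signals to mitochondria, had 25.2, 25.8 and 25.3 FPKM with chrysin, against 22.3, 23.7 and 21.3 FPKM in high glucose. The log2 fold change of BID was 0.18 ± 0.05 (SE; limma adjusted p = 0.00967), and its groups did not overlap. PMAIP1 (chr18:59899948-59904306, plus strand), whose protein mainly neutralises MCL1, had 11.6, 9.76 and 12.9 FPKM with chrysin, against 13.1, 15.0 and 12.4 FPKM in high glucose. These ranges overlapped, and the log2 fold change was −0.24 (95% interval −0.47 to −0.0037; limma adjusted p = 0.0904). Without chrysin library 3 it was −0.32 (adjusted p = 0.0352), and without chrysin library 2 it was −0.13 (adjusted p = 0.315).

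The effector transcripts were not called. BAX (chr19:48954815-48961798, plus strand) had 154, 146 and 124 FPKM with chrysin, against 132, 137 and 158 FPKM in high glucose, with log2 fold change −0.01 (95% interval −0.21 to 0.18; limma adjusted p = 0.919). Its sign turned positive without chrysin library 3 (0.08) or high glucose library 3 (0.06). BAK1 (chr6:33572547-33580293, minus strand) had 29.1, 26.9 and 27.2 FPKM with chrysin, against 29.9, 27.5 and 28.1 FPKM in high glucose, with log2 fold change −0.04 (95% interval −0.15 to 0.07; adjusted p = 0.543). Both sets of groups overlapped.  The pseudogene BAK1P1 was listed at 0.429 to 1.08 FPKM, far under the level of BAK1.

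The anti-apoptotic members changed in different directions, MCL1 and BCL2L1 by small amounts. MCL1 (chr1:150574551-150579738, minus strand), a short-lived protein that restrains BAK1, had 122, 125 and 121 FPKM with chrysin, against 137, 143 and 147 FPKM in high glucose. It fell by 0.21 on the log2 scale (SE 0.03; limma adjusted p = 0.000265), without overlap. BCL2L1 (chr20:31664452-31723989, minus strand) had 95.1, 96.8 and 94.6 FPKM with chrysin, against 90.2, 85.9 and 84.9 FPKM in high glucose. It rose by 0.13 (SE 0.03; adjusted p = 0.00445), also without overlap. Its antisense neighbour ABALON, which shares 1424 of 3314 exon bases, stayed at 0.945 to 1.80 FPKM over all 9 libraries.

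BCL2 (chr18:63123346-63320128, minus strand), the founding member of the family, was the scarcest anti-apoptotic transcript. It had 0.886, 0.731 and 0.932 FPKM with chrysin, against 0.405, 0.514 and 0.505 FPKM in high glucose, from 68 to 103 reads per library with chrysin and 41 to 59 in high glucose. The chrysin libraries were all above the high glucose libraries. The log2 fold change was 0.47 ± 0.16 (SE; limma adjusted p = 0.0373), and the ratio of mean FPKM was 1.79, above the 1.55 of BCL2L11. This call was lost without chrysin library 1 (adjusted p = 0.0884), chrysin library 3 (0.104) or any of high glucose libraries 1, 2 and 3 (0.0976, 0.0613 and 0.0661), and on recovered reads limma voom gave 0.84 (adjusted p = 0.000701), and a pseudocount of 0.1 gave 0.72.

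**Figure D2:**
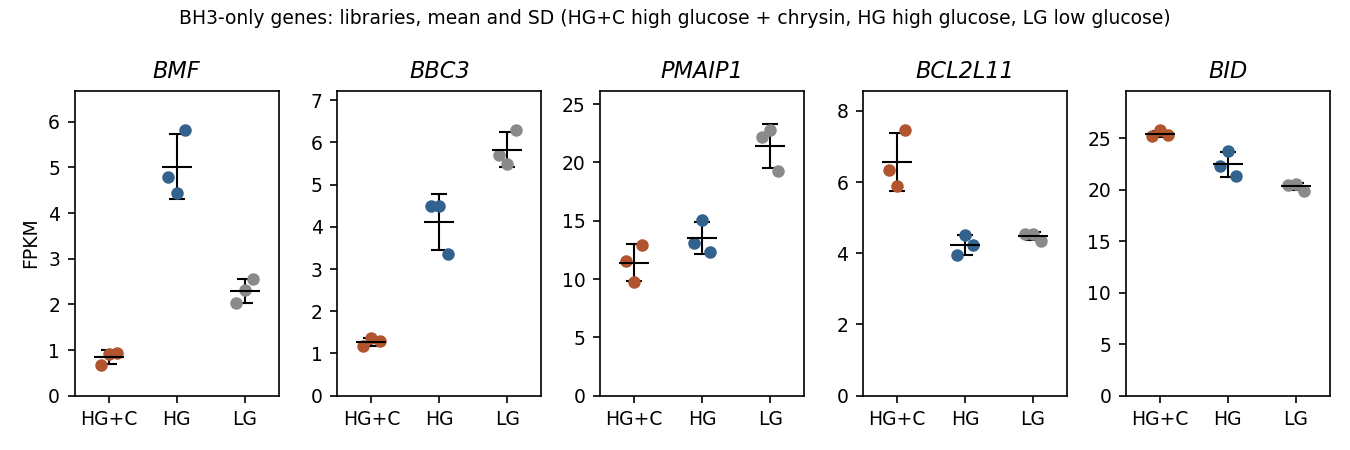
FPKM of the 5 BH3-only genes by group (HG+C high glucose with chrysin, HG high glucose, LG low glucose); points are libraries, horizontal bars means and whiskers SD of 3 libraries, and every axis starts at 0. BMF is highest in high glucose and lowest with chrysin, BBC3 and PMAIP1 are highest in low glucose, and BCL2L11 and BID are highest with chrysin.

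With no other glucose level sequenced, an effect of high glucose cannot be told apart from an effect of low glucose. The comparison of high with low glucose shares its high glucose libraries with the comparison above. Here 3 genes rose (BMF, BAK1 and MCL1) and 2 fell (BBC3 and PMAIP1), where 14.6% of all genes tested were called higher and 8.91% lower. Over all genes the split of 2488 higher and 1514 lower calls became 1990 and 1870 with median-of-ratios scaling, which moved the median log2 fold change by less than 0.1. High and low glucose libraries did not overlap for 6 of the 10 members, against 37.9% of all genes tested.

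BMF was higher in high glucose, with the 4.79, 4.45 and 5.81 FPKM given above against 2.02, 2.32 and 2.55 FPKM in low glucose. Each high glucose library exceeded every low glucose library. The log2 fold change was 0.97 ± 0.14 (SE; limma adjusted p = 0.000687), exceeded in size by 1.13% of tested genes, with 59 to 68 reads per low glucose library. BAK1 had 29.9, 27.5 and 28.1 FPKM in high glucose, against 21.9, 20.7 and 21.0 FPKM in low glucose, and rose by 0.42 (SE 0.05; adjusted p = 0.0002). MCL1 had 137, 143 and 147 FPKM in high glucose, against 126, 125 and 129 FPKM in low glucose, and rose by 0.17 (SE 0.03; adjusted p = 0.00354). Neither gene had overlapping groups.

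BBC3 and PMAIP1 fell in high glucose. PMAIP1 had the 13.1, 15.0 and 12.4 FPKM given above, against 22.2, 22.8 and 19.3 FPKM in low glucose, with log2 fold change −0.65 ± 0.11 (SE; limma adjusted p = 0.00146). All low glucose libraries were above all high glucose libraries. BBC3 had 4.49, 4.50 and 3.35 FPKM in high glucose, against 5.71, 5.48 and 6.29 FPKM in low glucose, again without overlap, with log2 fold change −0.47 ± 0.12 (SE; adjusted p = 0.0174). The BBC3 call was lost without high glucose library 3 (−0.34, adjusted p = 0.0533) or low glucose library 3 (−0.41, adjusted p = 0.0701), which leaves 1 gene called lower.

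The remaining 5 genes, whose high glucose values stand above, were not called between the glucose levels. BID had 20.5, 20.6 and 19.9 FPKM in low glucose and did not overlap with high glucose, with log2 fold change 0.14 (limma adjusted p = 0.0532), which came to 0.18 (adjusted p = 0.027) without high glucose library 3. BCL2L11 had 4.54, 4.53 and 4.34 FPKM in low glucose, with log2 fold change −0.07 (95% interval −0.28 to 0.14). BCL2L1 had 89.3, 87.6 and 90.1 FPKM in low glucose, with log2 fold change −0.03 (95% interval −0.10 to 0.04). BAX had 129, 139 and 151 FPKM in low glucose, with log2 fold change 0.03, and BCL2 had 0.596, 0.497 and 0.431 FPKM, with log2 fold change −0.05. The signs of the BAX and BCL2 values turned with single libraries left out, and that of BAX also with other scalings.

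**Figure D3:**
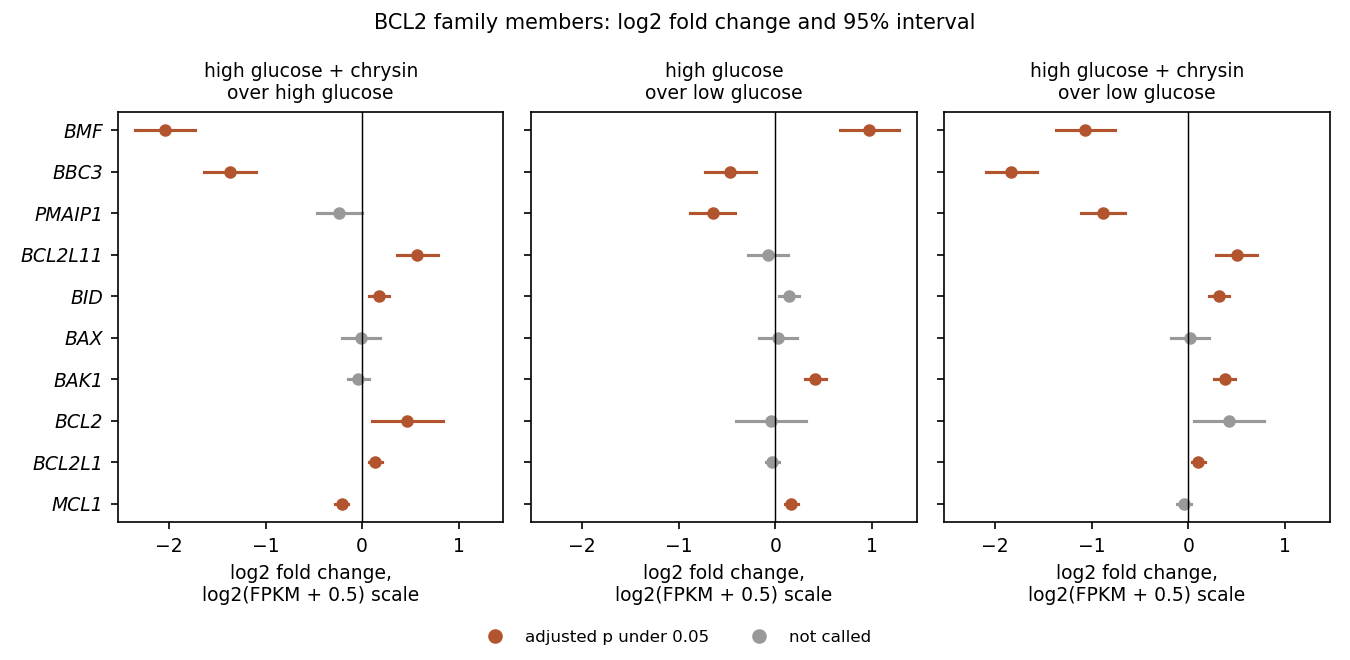
Log2 fold changes (points) and 95% intervals (lines) of the 10 genes in the 3 comparisons, on the log2(FPKM + 0.5) scale; coloured genes passed a limma adjusted p of 0.05 and grey ones did not. BMF lies at −2.04 with chrysin over high glucose and at 0.97 for high over low glucose, while BAX lies within 0.03 of 0 in every panel.

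Set against low glucose, cells with both high glucose and chrysin had 4 genes higher (BCL2L11, BID, BAK1 and BCL2L1) and 3 lower (BMF, BBC3 and PMAIP1), where 29.7% of all genes were called higher and 21.3% lower. Over all genes the split of 5048 higher and 3616 lower calls became 4213 and 4349 with median-of-ratios scaling. Chrysin and low glucose libraries did not overlap for 8 of the 10 genes, against 60.0% of all genes tested. This comparison shares libraries with both others, so its values add the placing of the chrysin group beside low glucose and are no separate test. BBC3 fell furthest, by 1.83 on the log2 scale (SE 0.12; limma adjusted p = 6.51e-07), and 0.441% of tested genes had a larger change. BMF fell by 1.07 (adjusted p = 8.7e-05), so that its level with chrysin lay below that in low glucose as well as below that in high glucose. PMAIP1 fell by 0.88 (adjusted p = 4.47e-05). MCL1, at −0.05 (95% interval −0.12 to 0.02; adjusted p = 0.243), and BAX, at 0.02 (adjusted p = 0.901), were not called.

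Among the genes higher with chrysin than in low glucose, BCL2L11 rose by 0.50 (limma adjusted p = 0.00115), BAK1 by 0.38 (adjusted p = 7.8e-05), BID by 0.32 (adjusted p = 0.00021) and BCL2L1 by 0.10 (adjusted p = 0.0177). BCL2L1 lost its call with median-of-ratios scaling (0.04, adjusted p = 0.267), with correction for GC content and length (0.03, adjusted p = 0.366), without chrysin library 2 (adjusted p = 0.0622) or without low glucose library 2 (adjusted p = 0.0647). BCL2 did not overlap between the groups but was not called, with log2 fold change 0.42 (adjusted p = 0.0523), whereas on recovered reads limma voom gave 0.74 (adjusted p = 0.00202).

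The 5 BH3-only members did not all move the same way. Summed over these 5 genes alone, which leave out other BH3-only genes such as BAD, their level came to 45.5 ± 2.17 FPKM with chrysin, 49.3 ± 2.65 FPKM in high glucose and 54.3 ± 1.75 FPKM in low glucose (SD, n = 3 each). The chrysin and high glucose ranges overlapped, and BID and PMAIP1 made up most of this sum. BAD, named after its values were seen, had 75.7 ± 5.28 FPKM with chrysin, 77.3 ± 4.56 FPKM in high glucose and 73.1 ± 1.97 FPKM in low glucose. The sum of BCL2, BCL2L1 and MCL1 was 219 ± 3.39 FPKM with chrysin, 230 ± 2.46 FPKM in high glucose and 216 ± 3.24 FPKM in low glucose, and the sum of BAX and BAK1 was 169 ± 16.3 FPKM with chrysin, 171 ± 13.2 FPKM in high glucose and 161 ± 10.5 FPKM in low glucose.

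Ratios within a library, given as descriptions without a test, put pairs of members side by side, all but the last of them binding partners. The ratio of BAX to BCL2 was 169 ± 33.7 with chrysin, 302 ± 31.3 in high glucose and 282 ± 66.8 in low glucose (SD, n = 3 each). This ratio rests on the scarce BCL2 reads, and its size on the lengths used for both genes. For BBC3 to BCL2L1 it was 0.0134 ± 0.000907 with chrysin, 0.0472 ± 0.00684 in high glucose and 0.0655 ± 0.00379 in low glucose, with no overlap between any of the 3 groups. BCL2L11 to MCL1 stood at 0.0535 ± 0.00759 with chrysin, 0.0297 ± 0.00155 in high glucose and 0.0353 ± 0.00142 in low glucose. With chrysin the ratio of BBC3 to BCL2L1 was thus lower and that of BCL2L11 to MCL1 higher than in high glucose, although both set a BH3-only gene over an anti-apoptotic one. PMAIP1 to MCL1 was 0.0932 ± 0.0146 with chrysin and 0.0948 ± 0.0107 in high glucose, which overlapped, and 0.169 ± 0.0174 in low glucose. The ratio of BCL2L11 to BMF, chosen after the values were seen, was 7.96 ± 1.57 with chrysin, 0.856 ± 0.144 in high glucose and 1.97 ± 0.272 in low glucose.

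Genes whose pattern over the 9 libraries was most like that of the 3 members with the largest changes were found among 10022 genes averaging 5 FPKM or more. For BMF the closest were CLSTN3 (Pearson r = 0.993), MCM4 (0.989) and RBMX (0.988). For BBC3 they were CNPY3 (0.995), ITGB4 (0.994) and DYSF (0.994), and for PMAIP1 ISOC2 (0.976), SUMF2 (0.97) and TMEM106A (0.968). The 9 points fall into 3 treatment groups, so such values mainly describe the relative spacing of the group levels.

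Beyond the 10 genes, relatives and partners of the family were counted over lists. The shares of all tested genes against which to read these counts are those given above, 24.9% higher and 20.9% lower with chrysin against high glucose, and 14.6% higher and 8.91% lower in high against low glucose. Of 16 further BCL2-related genes, 10 passed the filter, while BIK, HRK, BCL2A1, BCL2L10, BCL2L14 and BCL2L15 did not. With chrysin against high glucose 2 rose and 3 fell, with a median log2 fold change of −0.03 beside 0.03 over all genes, and the rises came down to 1 with median-of-ratios scaling or without chrysin library 3. In high against low glucose 4 rose and none fell, with a median of 0.09 beside 0.03. For this and each later list with a count of 0 called by limma, voom on recovered reads also called 0, and 0 had an unadjusted p under 0.05 in that direction, except 1 gene of the turnover list. The mitophagy receptors BNIP3 and BNIP3L, both known as hypoxia-induced genes, fell the most. BNIP3 had 28.3, 29.6 and 27.2 FPKM with chrysin, 92.1, 92.9 and 92.5 FPKM in high glucose, and 67.5, 62.4 and 65.1 FPKM in low glucose. Its order of groups was that of BMF, with log2 fold changes of −1.69 with chrysin over high glucose (limma adjusted p = 1.71e-09) and 0.51 for high over low glucose (adjusted p = 1.71e-05). BNIP3L had log2 fold changes of −1.31 (adjusted p = 6.5e-09) and 0.29 (adjusted p = 0.00073) in the same comparisons. BECN1, an autophagy protein bound by BCL2, rose by 0.43 with chrysin against high glucose (adjusted p = 9.56e-06).

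Downstream of the mitochondrion, the 15 genes of the apoptosome, the caspases and the released factors gave 3 rises and 8 falls with chrysin against high glucose, where 24.9% of all genes rose and 20.9% fell, with a median of −0.23 beside 0.03 over all genes. The rises included DFFA, the inhibitor of the caspase-activated nuclease, by 0.45 (limma adjusted p = 5.15e-06), and CYCS, cytochrome c, by 0.34 (adjusted p = 9.56e-06). CASP8, the protease that cuts BID, fell by 0.43 (adjusted p = 4.86e-05). In high against low glucose 5 rose and none fell, with a median of 0.10, among them APAF1, the scaffold of the apoptosome, by 0.50 (adjusted p = 0.000303).

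The next lists were the inhibitors of apoptosis and the death receptors. Of 5 tested inhibitors of apoptosis, BIRC2 and BIRC5 rose with chrysin against high glucose, by 0.51 (limma adjusted p = 1.41e-05) and 0.28 (adjusted p = 1.86e-05), and none fell, or 1 without high glucose library 1; the median was 0.17. In high against low glucose BIRC5 rose by 0.29 (adjusted p = 6.78e-05) and XIAP, a direct caspase inhibitor, fell by 0.19 (adjusted p = 0.0196), a call lost without high glucose library 1 (adjusted p = 0.0515) or low glucose library 2 (adjusted p = 0.0699), with a median of −0.01. The falls came to 2 with median-of-ratios scaling or voom on recovered reads. Of 10 tested death receptors and adaptors, 2 rose and 4 fell with chrysin against high glucose, with a median of −0.03. The rises came down to 1 with any library of these groups left out, with no filter, with a filter of 5 FPKM or with GC and length correction. The falls came down to 1 without chrysin library 2, and to 2 without chrysin library 3 or high glucose library 3 or in a fit of only these groups. TNFRSF10D, a decoy receptor for the ligand TRAIL, had 49.5, 50.5 and 49.3 FPKM with chrysin, 27.3, 27.9 and 26.4 FPKM in high glucose and 15.2, 15.3 and 15.5 FPKM in low glucose. It rose by 0.86 with chrysin against high glucose (adjusted p = 6.64e-08) and by 0.81 in high against low glucose (adjusted p = 2.99e-07), where the list had 4 rises, 1 fall and a median of 0.20.

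Of 15 tested transcription factors known to act on the family, 2 rose and 9 fell with chrysin against high glucose, with a median of −0.21 beside 0.03 over all genes, and the rises came down to 1 with no filter or without chrysin library 2 or 3. JUN fell by 0.69 (limma adjusted p = 2.6e-07) and FOXO4 by 0.91 (adjusted p = 3.64e-05). In high against low glucose 3 rose and 5 fell, with a median of −0.07. DDIT3, which encodes CHOP, a stress factor that can induce BBC3 and BCL2L11, had 5.11, 5.07 and 4.27 FPKM with chrysin, 9.75, 9.63 and 9.62 FPKM in high glucose and 109, 101 and 99.3 FPKM in low glucose. Low glucose stood far above both other groups, with log2 fold changes of −0.94 with chrysin over high glucose (adjusted p = 1.61e-06) and −3.35 for high over low glucose (adjusted p = 2.45e-10). ATF4, which acts upstream of DDIT3 and on PMAIP1, fell by 0.55 in high against low glucose (adjusted p = 2.38e-07), and MYC by 0.72 (adjusted p = 4.75e-06). Whether these factors had any part in the values of the members was not tested.

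The last list held 13 genes for the turnover of MCL1 and the anchoring of BH3-only and effector proteins, of which 5 rose and 3 fell with chrysin against high glucose, with a median of 0.01. FBXW7, part of the ubiquitin ligase that marks MCL1 for destruction, rose by 0.64 (limma adjusted p = 2.96e-05), while MCL1 transcript fell. DYNLL2, the dynein light chain that tethers BMF, rose by 0.39 (adjusted p = 4.31e-05), and VDAC1 by 0.23 (adjusted p = 2.01e-05). In high against low glucose 3 rose and none fell, with a median of 0.06. The rises came to 5 with voom on recovered reads or a filter of 5 FPKM, and the falls to 1 without high glucose library 2. The 3 were DYNLL1, the light chain linked to BIM (0.38, adjusted p = 8.06e-05), YWHAZ (0.10, adjusted p = 0.00406) and VDAC3 (0.13, adjusted p = 0.0057).

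Against low glucose, the chrysin group had 4 rises and 4 falls among the 10 further BCL2-related genes, 2 rises and 10 falls among the transcription factors, and 2 rises and 1 fall among the inhibitors of apoptosis, at medians of 0.02, −0.32 and 0.04 beside 0.05 over all genes. The caspase list had 5 rises and 2 falls at a median of −0.12, the falls ranging from 1 to 8 over the alternative settings. The death receptor list had 5 rises and 1 fall at a median of 0.13. Its rises ranged from 3 to 5 and its falls from 1 to 2. The turnover list had 7 rises and 1 fall at a median of 0.29, the falls ranging from 0 to 4. Of all genes tested in this comparison, 29.7% were called higher and 21.3% lower.

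**Figure D4:**
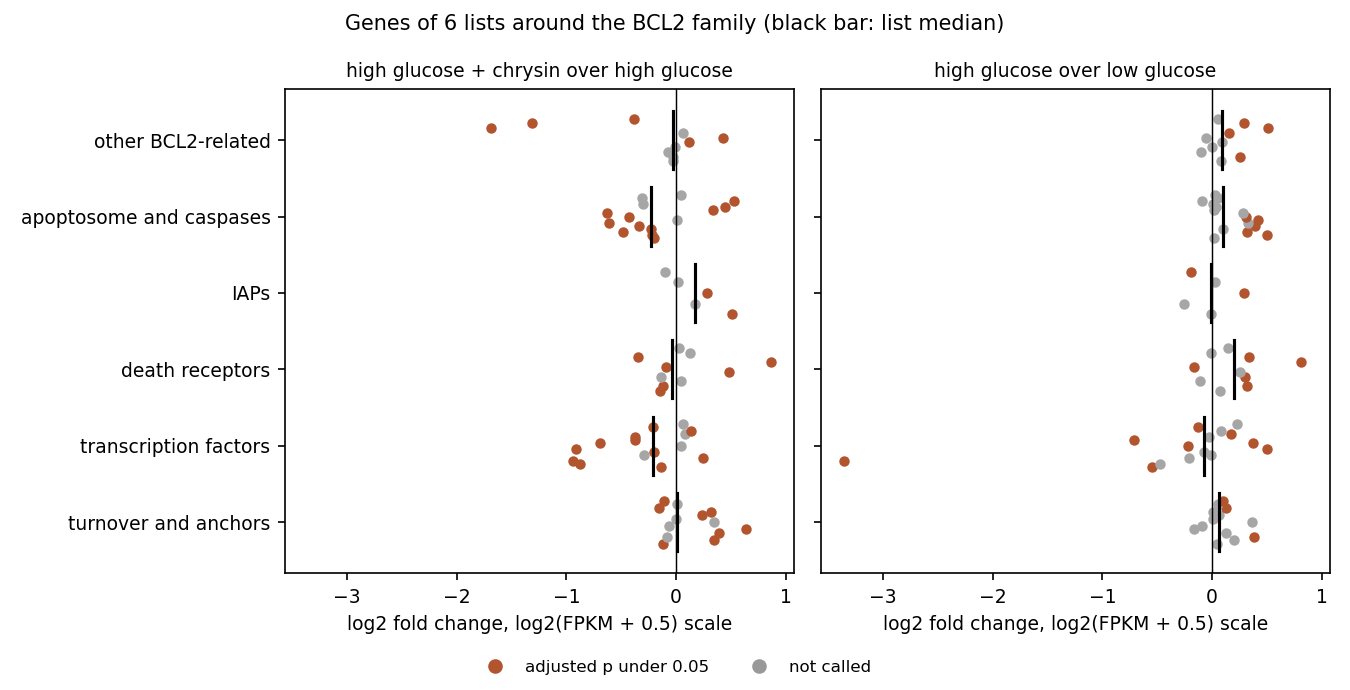
Log2 fold changes of the tested genes of 6 lists around the family, with chrysin over high glucose on the left and high over low glucose on the right; coloured points passed a limma adjusted p of 0.05 and black bars are list medians. BNIP3 and BNIP3L are the points farthest left in the top row of the left panel, and DDIT3 is the point at −3.35 on the right.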

How the data were processed

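The authors deposited 1 table of FPKM values with a column per library. No header names the unit, which was read from the values and from the column sums of 690851 to 704370. Per the submitters' processing notes, fastp 0.23.4, HISAT2 2.2.1, StringTie 2.2.1 and HTSeq 0.13.5 and the build hg38 were used; the sources used here do not give their roles, the annotation release or the strand setting. All 28230 rows above 0 in 2 or more libraries came out as whole reads, each gene having its own value per read, within 4.6e-05 reads (tolerance 0.001), and these reads made up 99.92% of the total implied by single-transcript genes.

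The main test was limma 3.58.1 (R 4.3.3), fitted to log2(FPKM + 0.5) with a trend of variance on mean, over the 16996 genes averaging 0.5 FPKM or more in any group. A single fit without a block held all 9 libraries, with two-sided contrasts, and called genes had a Benjamini-Hochberg adjusted p under 0.05 over all genes tested. For a single gene, exact permutation between groups of 3 gives at best p = 0.1. Standard errors and intervals come from limma. The fit was tested on simulated data. Settings tried besides were a pseudocount of 0.1 or 1, leaving the filter out or raising it to 5 FPKM, scaling by median of ratios, voom (limma) on the recovered reads, a replicate block, fitting only the groups compared, loess correction for GC content and length (16336 genes), and leaving out each library.

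The 10 members and the lists were chosen with earlier results of these data known. All members are named. Of each list, up to 3 called genes with the smallest p per comparison could be named. Some list genes are not reported here by name. Gene positions and shared exons came from GENCODE 29 on hg38, and upstream sequences from RefSeq on GRCh38.p14. Lists are described by counts and medians, without a set test.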

Additional observations from a re-analysis of the deposited data

How the results depend on the processing

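Counts of called genes over the whole table stayed within 1.5 times of the reported ones under all alternatives, and so did 106 of 108 counts of members. The count of members lower in high than in low glucose was 2 as reported and ran from 1 to 2 with a library left out, falling to 1 when library 3 of either group was left out, where BBC3 was lost. BMF and BBC3 were called with the same sign in chrysin against high glucose under all 18 alternatives, with log2 fold changes of −2.54 to −1.71 and −1.67 to −1.16. Of the values of single members, 503 kept direction and call, 13 lost a call, 8 gained one and 13 changed sign, and no value that changed sign had been called. BAX in high against low glucose became −0.000461 with median-of-ratios scaling, −0.0152 with GC and length correction, −0.0485 without high glucose library 3 and −0.027 with low glucose library 1 left out, its values with single libraries left out running from −0.0485 to 0.0857. BAX in chrysin against high glucose became 0.0782 without chrysin library 3 and 0.0639 without high glucose library 3, in a range of −0.0776 to 0.0782. BAX in chrysin against low glucose became −0.0422 with median-of-ratios scaling, −0.0272 with GC and length correction, and −0.0494, −0.011 and −0.0399 with chrysin library 1, chrysin library 2 or low glucose library 1 left out, in a range of −0.0494 to 0.107. BCL2 in high against low glucose became 0.00533 when high glucose library 1 was left out and 0.0145 when low glucose library 1 was. MCL1 in chrysin against low glucose gained a call with median-of-ratios scaling (−0.10, adjusted p = 0.0168), BCL2L1 in high against low glucose with GC and length correction (−0.09, adjusted p = 0.028), and BID in high against low glucose with a mean of at least 5 FPKM (adjusted p = 0.0404), a filter that BCL2 did not pass. BCL2 in chrysin against low glucose gained a call with a pseudocount of 1 (0.29, adjusted p = 0.0486) and with GC and length correction (0.43, adjusted p = 0.0421). BCL2 in chrysin against high glucose lost its call in the fit of only the groups compared (adjusted p = 0.0582) and with the replicate block (0.47, adjusted p = 0.066). The replicate block, in which same-numbered libraries are paired, changed no other member's call and gave 3 higher and 2 lower members in high against low glucose, 3 and 3 in chrysin against high glucose, and 4 and 3 in chrysin against low glucose. Same-numbered libraries did not deviate together, with correlations of −0.015 to 0.008. The causes of these shifts were not tested. Depth limits BMF, BBC3 and BCL2, which had as few as 17, 33 and 41 reads in a library.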
